A study of Mus musculus with 6 samples.

Results

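The genes that encode ligands and receptors of the GDNF family were examined in whole embryonic kidneys of the mouse: the ligand genes Gdnf, Nrtn and Artn, the receptor tyrosine kinase gene Ret, and the co-receptor genes Gfra1, Gfra2, Gfra3 and Gfra4. Every probe set of the array with 1 gene symbol, belonging to one of these 8 genes, was taken, which gave 15 of the 45101 probe sets. RNA came from kidneys at embryonic day 12.5 on the C57BL/6 strain, in 2 groups of 3 biological replicates with 1 array each, Ret-deficient and wild-type. The titles and the genotype field place the deficiency in the kidney, whereas the source field names a Ret-knockout pregnant female. The sources used here give neither the Ret allele nor the litters or the number of embryos per sample, so whether a Ret probe set lies in deleted sequence is unknown.

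GDNF is secreted by the mesenchyme next to the ureteric bud, an epithelial tube whose branching forms the collecting ducts. It binds the membrane-anchored co-receptor GFRA1, and this complex activates RET on the bud, which drives outgrowth and branching of the tip. Neurturin (Nrtn), artemin (Artn) and persephin use GFRA2, GFRA3 and GFRA4 as their preferred co-receptors and also signal through RET, mainly in peripheral neurons and other tissues. The comparison asks how the genes of this ligand and receptor system differ when RET is lacking.

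Gdnf and Gfra1, the ligand and co-receptor that act with RET in the kidney, are shown here by the 250 bases before their transcription starts, because every probe set of these genes read lower in Ret-deficient kidneys. The sequences are those of RefSeq on GRCm38.p6, which held such a window for 5 of the 8 genes, and each is read 5′ to 3′ on the transcribed strand. Capitals mark the motif TATAAA, searched on both strands. The upstream Gdnf start (chr15:7809798-7810047, plus strand), the downstream Gdnf start (chr15:7813477-7813726, plus strand) and the Gfra1 start (chr19:58455399-58455648, minus strand) have these sequences.
Gdnf upstream start: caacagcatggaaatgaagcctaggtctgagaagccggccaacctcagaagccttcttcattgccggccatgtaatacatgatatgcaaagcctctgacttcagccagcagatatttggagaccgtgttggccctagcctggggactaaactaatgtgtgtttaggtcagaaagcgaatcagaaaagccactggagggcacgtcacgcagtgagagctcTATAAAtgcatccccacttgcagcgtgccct
Gdnf downstream start: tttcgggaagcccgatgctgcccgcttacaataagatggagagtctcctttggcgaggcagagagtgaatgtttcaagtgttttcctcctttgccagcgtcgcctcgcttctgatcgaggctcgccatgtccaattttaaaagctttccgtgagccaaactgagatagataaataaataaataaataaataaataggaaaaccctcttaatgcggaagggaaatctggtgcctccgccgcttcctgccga
Gfra1 start: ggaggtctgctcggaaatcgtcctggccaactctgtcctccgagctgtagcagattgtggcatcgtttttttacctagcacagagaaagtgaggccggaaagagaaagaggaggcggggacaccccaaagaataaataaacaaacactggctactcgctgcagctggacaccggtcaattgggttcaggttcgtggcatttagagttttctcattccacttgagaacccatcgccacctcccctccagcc
The upstream Gdnf window holds TATAAA, which begins 31 bases before the start, and the other windows do not hold it. Of the 32851 promoter windows of the same length, 12.4% hold this motif on either strand. The motif GGGCGG, found in 32.7% of windows, is in none of these 3. The array has 1 Gdnf probe set, and which start its signal comes from was not tested.

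Signals are the authors' MAS5 intensities, which had been scaled to the same trimmed mean of 2500 on every array. As a gauge of background, each array's brightest probe set among 27 controls for genes of Bacillus subtilis was used. It read 128.2, 116.8 and 133.4 in Ret-deficient replicates 1, 2 and 3, against 186.9, 114.7 and 97.2 in wild-type replicates 1, 2 and 3. Wild-type replicate 1 stood apart in RNA quality: its ratio of 3′ to 5′ signal for beta-actin was 10.7, against 3.88 to 5.21 on the other arrays. Ret-deficient replicate 1 stood apart in the signal of epithelial markers. Of 10 measured markers of the ureteric epithelium, 7 were above the gauge there and all 10 on each other array. Their summed signal was 7397 in that sample and 49120 to 61538 in the other Ret-deficient samples, against 70213 to 79368 in wild-type samples. Calb1 was a large part of these sums, at 13352.8 in Ret-deficient replicate 2 and 21362.8 to 29915.9 in wild-type samples. In Ret-deficient replicate 2, Krt18, Wnt9b and Epcam were above every wild-type sample. Of the 10 markers, 5 were lower in Ret-deficient kidneys without overlap, where 6.16% of 18193 genes were. All 7 measured markers of nephron progenitors were above the gauge on every array.

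Across the genes of the family, Ret had by far the largest difference. Gdnf signal in each Ret-deficient kidney sample was 48.3% to 51.2% of the wild-type mean. Gfra1 was lower on all 3 of its probe sets, with 1 of them separating the groups. For Nrtn, Artn, Gfra3 and Gfra4 the groups overlapped. In all, 13 of the 15 probe sets had a negative log2 difference (Ret-deficient minus wild-type), with a median of -0.42, against a median of -0.06 over all 45037 probe sets tested. Of 18193 genes, each by its brightest probe set, 9726 had a negative difference. The 15 are not independent, since Ret, Gfra1 and Gfra2 have several each, and only 9 were above the gauge on every array. The groups did not overlap on 5 of the 15, where they did not overlap on 10.2% of all probe sets. Each of the 5 was lower in Ret-deficient kidneys, as were 6.15% of all probe sets without overlap. Both Ret probe sets are among these 5, and Ret is the gene by which the groups were defined. None of the 15 was higher without overlap, where 4.03% of all probe sets were. In limma, adjusted over all 45037 probe sets, none of the 15 and 0% of all probe sets passed an adjusted p of 0.05. At an unadjusted p under 0.05 in limma there were 4 of the 15, all lower, with both Ret probe sets among them. Of all probe sets 5.03% were at that level, 3.23% lower and 1.80% higher. Of the 15 probe sets, 10 were among the 22519 brighter ones (mean signal of at least 304), and these covered 7 of the 8 genes. Among all of the brighter ones, 5.57% were lower and 5.19% higher without overlap.

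**Figure D1:**
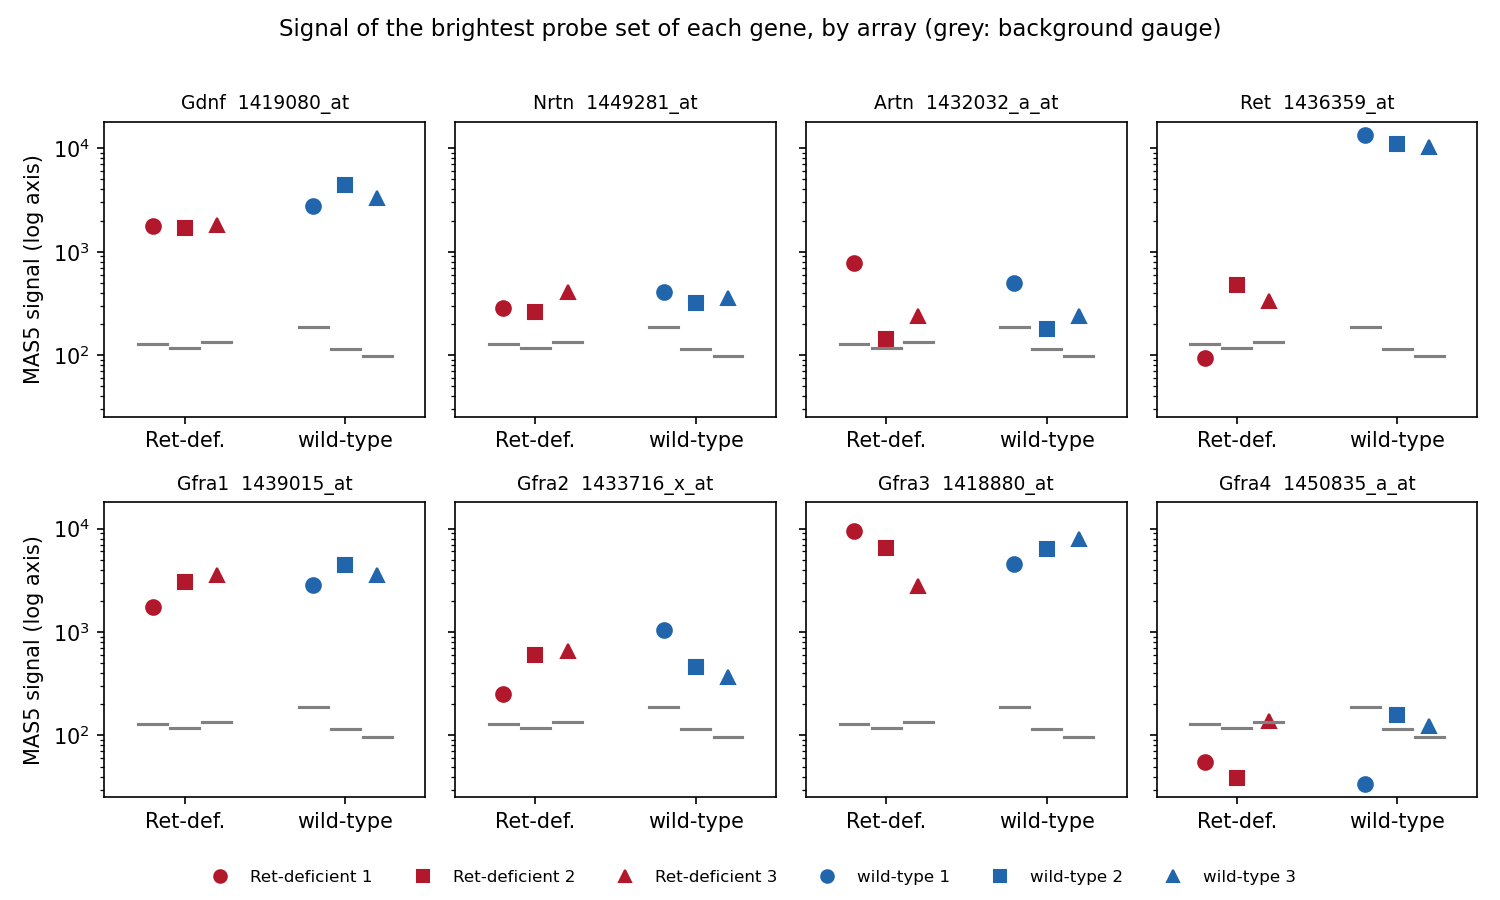
MAS5 signal (log axis) of the brightest probe set of each of the 8 genes on the 3 Ret-deficient arrays (red, left) and the 3 wild-type arrays (blue, right), with symbols for replicates and grey bars for the background gauge of each array. Ret and Gdnf are the genes whose groups do not overlap on these probe sets. Gfra4 lies around the gauge.

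Gdnf, the ligand made by the mesenchyme, gave nearly the same signal in all Ret-deficient kidneys. Its probe set 1419080_at read 1772.2, 1697.5 and 1799.9 in Ret-deficient replicates 1, 2 and 3, against 2776.7, 4442.3 and 3317 in wild-type replicates 1, 2 and 3. The highest Ret-deficient sample lay well under the lowest wild-type sample. In percent of the wild-type mean the Ret-deficient samples stood at 50.5, 48.3 and 51.2. The means were 1757 ± 53.0 in Ret-deficient and 3512 ± 850 in wild-type kidneys (SD, n = 3 each). The log2 difference was -0.97 (SE 0.25, 95% interval -1.58 to -0.35), which did not pass over all probe sets in limma (adjusted p = 0.91). An exact permutation test, two-sided, gave p = 0.1, which is the smallest that 3 arrays against 3 allow. Without wild-type replicate 1 the difference was -1.12, and without Ret-deficient replicate 1 it was -0.97. Gdnf was as low in Ret-deficient replicate 1 as in the other Ret-deficient samples. The epithelial markers were far lower in that sample, and the part of the epithelium in the Gdnf values was not tested. In whole kidneys, fewer cells of a type and less RNA per cell cannot be told apart. The summed signal of the 7 nephron progenitor markers, a population that expresses Gdnf, was 32735 to 49674 in Ret-deficient and 35187 to 49248 in wild-type kidneys. Sall1 (means of 13140 in Ret-deficient and 14399 in wild-type kidneys) and Eya1 (11452 and 11063) were a large part of these sums. Six2 (1304 and 1351) and Cited1 (582 and 514) were a small part.

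Nrtn and Artn, the ligand genes of GFRA2 and GFRA3, were dimmer and their groups overlapped. Nrtn (1449281_at) read 285.9, 259.1 and 407.2 in Ret-deficient replicates 1, 2 and 3, against 409.4, 316.4 and 353.9 in wild-type replicates 1, 2 and 3. One Ret-deficient sample lay among the wild-type samples, and the log2 difference was -0.19 (95% interval -0.82 to 0.44). Without Ret-deficient replicate 3, which was that sample, it was -0.38 and the groups did not overlap, and without Ret-deficient replicate 2 it was -0.07. It was -0.10 without wild-type replicate 1. Artn (1432032_a_at) read 773.8, 144 and 240.4 in Ret-deficient replicates 1, 2 and 3, against 502.1, 180.9 and 239.9 in wild-type replicates 1, 2 and 3. Replicate 1 was the highest sample of both groups. The Artn difference was 0.10 (95% interval -1.53 to 1.74), so changes of over 2-fold in either direction lie within its error. Without Ret-deficient replicate 1 it was -0.55.

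Ret, the receptor itself, was the gene with the largest negative difference on the array. Of all 45037 probe sets, 1436359_at ranked 1 when ordered from the most negative log2 difference. It read 93.3, 479.8 and 334.1 in Ret-deficient replicates 1, 2 and 3, against 13315.2, 11041.9 and 10192.8 in wild-type replicates 1, 2 and 3. The Ret-deficient samples thus kept 0.81%, 4.17% and 2.90% of the wild-type mean, and the lowest of them was under the gauge of its array. The log2 difference was -5.43 (SE 0.57, 95% interval -6.82 to -4.03). Adjusted over all probe sets it did not pass in limma with a constant prior variance (adjusted p = 0.69), although its unadjusted p was 6.7e-05. With an intensity trend in the prior variance it passed (adjusted p = 0.00226) and was the 1 probe set of the whole array to do so. Under the other alternatives its adjusted p was 0.11 to 0.9999, and the difference of this probe set lay between -5.87 and -4.78. The mean over both Ret probe sets had a difference of -4.05. The exact permutation p (two-sided) was again 0.1.

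A dimmer Ret probe set, 1421359_at, read 62.3, 96.2 and 100.7 in Ret-deficient replicates 1, 2 and 3, against 684.3, 683.6 and 527.2 in wild-type replicates 1, 2 and 3. All 3 Ret-deficient values were under the gauge of their arrays, so the group has a bound there and not a level. Measured against that gauge, the signal was at least 4.98-fold lower in Ret-deficient kidneys, a bound on the means of log2 signals. In the fit its adjusted p was 0.69 over all probe sets.

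Ret was also set beside markers of the ureteric epithelium, whose level differed between the Ret-deficient samples. On each array the gene was set against its own wild-type mean, and so was the median of the 10 epithelial markers. In Ret-deficient replicate 2, where the marker median stood at -0.33, Ret (1436359_at) stood at -4.53. In replicate 3 the marker median stood at -0.70 and Ret at -5.03. In replicate 1 the marker median stood at -3.14, with 3 of the 10 markers under the gauge, and both Ret probe sets were under the gauge too, so no distance between Ret and the markers is given there. The dimmer Ret probe set, 1421359_at, was under the gauge in all Ret-deficient samples and adds no level to this comparison. The part of the epithelium's amount in the Ret signal was not tested. The Ret difference was -4.78 (SE 0.30) when Ret-deficient replicate 1 was left out, and -5.32 when wild-type replicate 1 was.

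**Figure D2:**
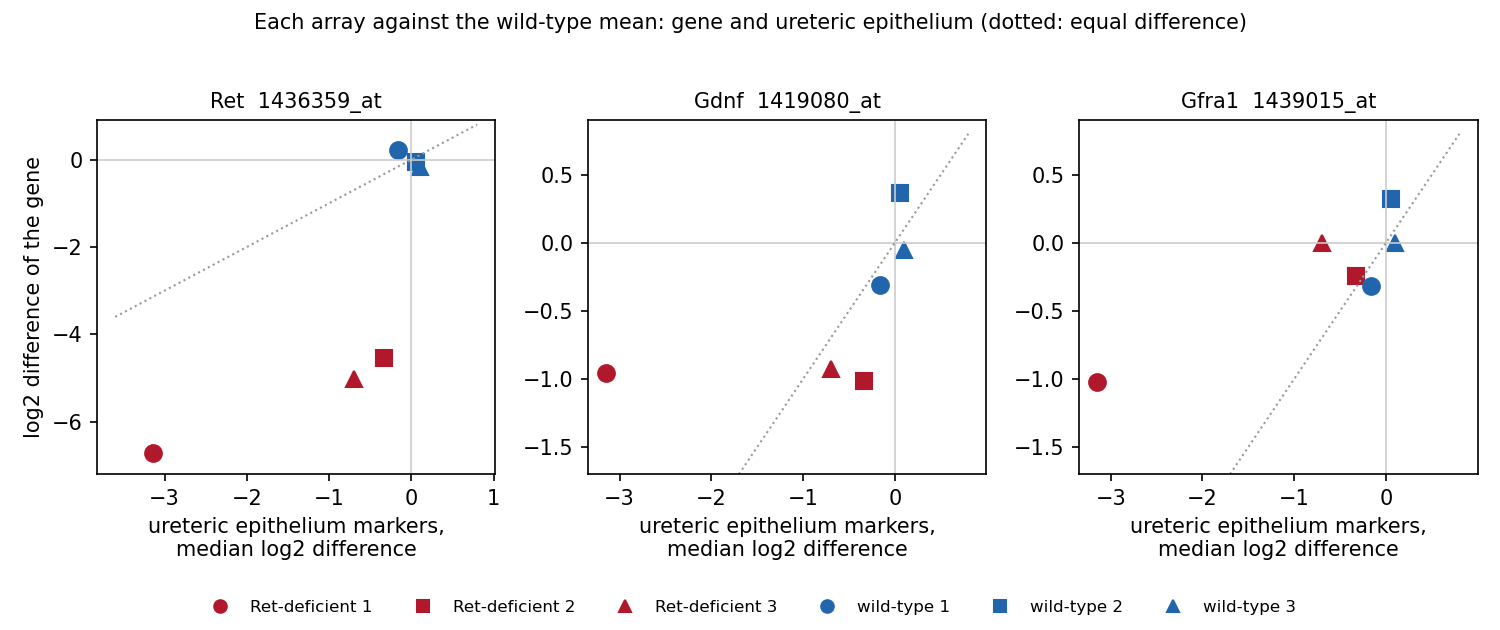
Log2 difference from the wild-type mean on each array for Ret, Gdnf and Gfra1 (vertical axes, brightest probe sets) against the median of 10 ureteric epithelium markers (horizontal axes), with Ret-deficient arrays in red and wild-type arrays in blue. Ret lies at -4.53 and -5.03 in Ret-deficient replicates 2 and 3, far under the dotted line of equal difference, and its point in replicate 1 is under the background gauge. Gdnf lies near -1 on each Ret-deficient array and at -0.31 to 0.36 on the wild-type arrays. Gfra1 is lowest in Ret-deficient replicate 1, where the markers are lowest.

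Gfra1, the co-receptor through which GDNF reaches RET, had 3 probe sets, each lower on average in Ret-deficient kidneys. The brightest, 1439015_at, read 1748.7, 3017.9 and 3560.6 in Ret-deficient replicates 1, 2 and 3, against 2860.5, 4452.5 and 3569.5 in wild-type replicates 1, 2 and 3. The groups overlapped, and the log2 difference was -0.42 (SE 0.35, 95% interval -1.27 to 0.42). The probe set 1421973_at read 404.4, 675.9 and 877.3 in Ret-deficient replicates 1, 2 and 3, against 839.9, 1278 and 1102.4 in wild-type replicates 1, 2 and 3, a difference of -0.75 (95% interval -1.61 to 0.10).

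The dimmest Gfra1 probe set, 1450440_at, read 74.4, 81.8 and 195.2 in Ret-deficient replicates 1, 2 and 3, against 221.7, 266.2 and 211.3 in wild-type replicates 1, 2 and 3. Here the groups did not overlap, but 2 of the 3 Ret-deficient values were under the gauge, so the difference of -1.01 is approximate (adjusted p = 0.97 in limma over all probe sets). On the other 2 probe sets Ret-deficient replicate 1 was the lowest of its group, and on 1450440_at replicates 1 and 2 were both under the gauge and have no order. Ret-deficient replicate 1 was also the sample with the fewest epithelial markers, and the part of this in the result was not tested. Leaving that sample out took the difference of 1439015_at to -0.12, that of 1421973_at to -0.45 and that of 1450440_at to -0.79. Without wild-type replicate 1, the array with the high 3′ to 5′ ratio, all 3 probe sets separated the groups. On 1439015_at the margin was very small, with 3560.6 in Ret-deficient replicate 3 against 3569.5 in wild-type replicate 3. Its limma adjusted p over all probe sets was 0.999 in that setting. The count over the 15 probe sets was 7 without wild-type replicate 1, where 10.8% of all probe sets were lower without overlap. The count was 5 without Ret-deficient replicate 1, where that share was 11.2%.

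**Figure D3:**
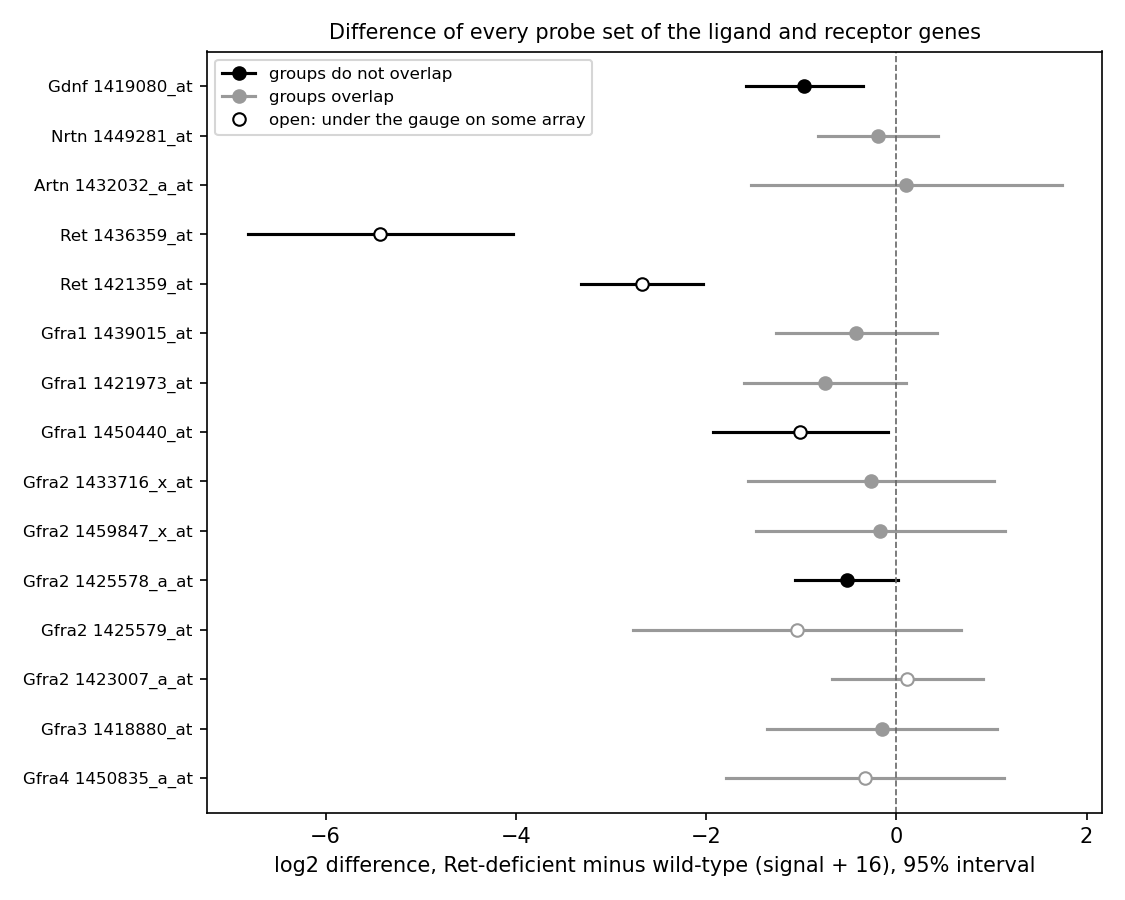
Log2 difference, Ret-deficient minus wild-type, of all 15 probe sets on the log2(signal + 16) scale, with 95% intervals from limma. Black marks probe sets whose groups do not overlap and open circles mark those under the background gauge on at least 1 array. The intervals of both Ret probe sets, Gdnf and Gfra1 1450440_at lie under 0, before any adjustment for the number of probe sets.

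Gfra2, the neurturin co-receptor, had 5 probe sets that differed among themselves. On 1425578_a_at the groups did not overlap: it read 255.2, 225.6 and 241.4 in Ret-deficient replicates 1, 2 and 3, against 390.2, 380.4 and 292.7 in wild-type replicates 1, 2 and 3. Its log2 difference was -0.52 (95% interval -1.06 to 0.02; limma adjusted p = 0.97 over all probe sets). The brighter 1433716_x_at read 253, 599.5 and 656.3 in Ret-deficient replicates 1, 2 and 3, against 1043.4, 459.4 and 365.1 in wild-type replicates 1, 2 and 3. Its groups overlapped, and its difference was -0.26 with all arrays but 0.18 without wild-type replicate 1 and 0.16 without Ret-deficient replicate 1. The probe set 1459847_x_at behaved alike, with 216.4 to 430.3 in Ret-deficient and 223.4 to 772.8 in wild-type kidneys and a difference of -0.17. It was 0.39 without wild-type replicate 1. Probe sets with the suffix _x_at can also match other transcripts. The remaining ones were at background: 1425579_at was under the gauge in all Ret-deficient samples and in 2 of 3 wild-type samples, and 1423007_a_at was under it on all 6 arrays.

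Gfra3, the artemin co-receptor known from sympathetic and sensory neurons, gave high signals that varied widely within both groups. Its probe set 1418880_at read 9433.5, 6427.9 and 2792.5 in Ret-deficient replicates 1, 2 and 3, against 4561.2, 6384.5 and 8001.7 in wild-type replicates 1, 2 and 3. The highest and the lowest of the 6 arrays were both Ret-deficient. The means were 6218 ± 3325 in Ret-deficient and 6316 ± 1721 in wild-type kidneys (SD, n = 3 each), with a log2 difference of -0.15 (95% interval -1.36 to 1.05). The difference was 0.34 without Ret-deficient replicate 3.

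Neuron markers were set beside Gfra3 by the rank of the 6 arrays, and most of them did not follow its order. Of the 8 measured markers, 6 ranked 2 to 4 arrays within 1 place of the Gfra3 rank. Dbh and Th, which encode enzymes of noradrenaline synthesis, did so for all 6 arrays. Both were singled out for this after their values were seen, so the match is a description, and several of their values were under the gauge and have no order. Dbh read 1300, 897 and 31 in Ret-deficient replicates 1, 2 and 3, against 179.2, 809.6 and 1784.2 in wild-type replicates 1, 2 and 3, with 2 of the 6 values under the gauge. The Dbh probe set has the suffix _x_at and can also match other transcripts. Th read 383.1, 275.5 and 21.5 in Ret-deficient replicates 1, 2 and 3, against 42.3, 81.7 and 188.4 in wild-type replicates 1, 2 and 3, with 3 of the 6 values under the gauge. The autonomic neuron factor gene Phox2a was within 1 place on 4 arrays, and it read 188.3 to 647.7 in Ret-deficient and 393.1 to 582.1 in wild-type kidneys. The other 5 markers (Hand2, Tubb3, Stmn2, Elavl4 and Prph) were within 1 place on 2 to 4 arrays. The summed signal of the 8 markers was 3163 to 6043 in Ret-deficient and 5379 to 8080 in wild-type kidneys, and the part of these cells in the Gfra3 values was not tested.

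**Figure D4:**
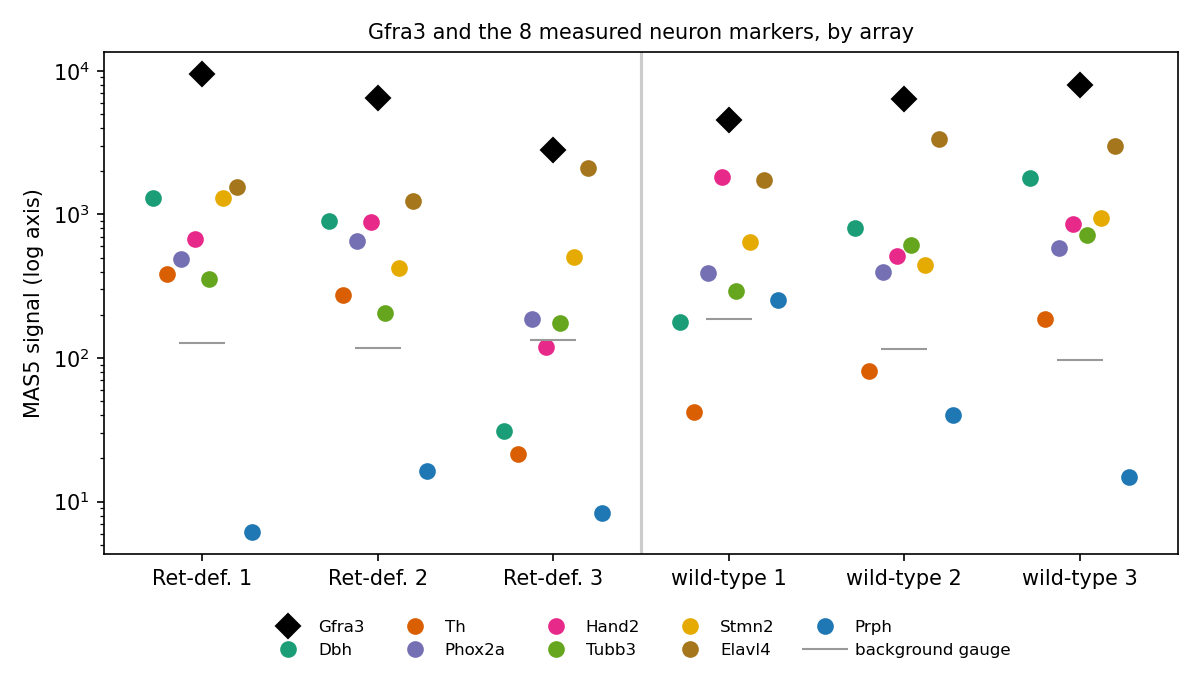
MAS5 signal (log axis) of Gfra3 (diamonds) and of the 8 measured neuron markers (circles) on each array, Ret-deficient left and wild-type right, with grey bars for the background gauge. Gfra3 is lowest in Ret-deficient replicate 3, as are Phox2a and Tubb3, and Dbh, Th and Hand2 are under the gauge there. Elavl4 and Stmn2 are not lowest there, and Prph is under the gauge on 5 of the 6 arrays.

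Gfra4, the persephin co-receptor, was near background. Its probe set 1450835_a_at read 55.8, 38.7 and 137.5 in Ret-deficient replicates 1, 2 and 3, against 34.3, 155.9 and 122.5 in wild-type replicates 1, 2 and 3. It was above the gauge in 1 Ret-deficient and 2 wild-type samples, so no fold change is given. The persephin gene Pspn, which is not among the 15 probe sets, read 71.9 to 128.7 in Ret-deficient and 22 to 103.5 in wild-type kidneys. It was above the gauge in 1 Ret-deficient sample and in none of the wild-type samples.

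The wider pathway was described with 6 lists that hold 64 genes, of which 55 were measured, each by its brightest probe set. None passed an adjusted p of 0.05 in limma over all probe sets. At an unadjusted p under 0.05 there were 3, all lower, where 2.79% of 18193 genes were lower and 1.94% higher at that level. The groups did not overlap for 6 genes that were lower and 1 that was higher in Ret-deficient kidneys, where 6.16% and 5.05% of 18193 genes did so. The median log2 difference over the 55 genes was -0.03, against -0.02 over the 18193.

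The transcription factors that control Ret or the ureteric lineage were the list with the lowest median. Of 9 measured upstream regulators 7 were lower and 2 higher, with a median of -0.56. Gata3, which maintains Ret in the ureteric duct, had a difference of -1.14 (SE 0.42) with groups that did not overlap, and Emx2, required for the bud epithelium, one of -1.60 (SE 0.73) with groups that did. Lhx1, picked after its values were seen, read 5, 1112.7 and 1242 in Ret-deficient replicates 1, 2 and 3, against 2246.5, 3141.7 and 2796.9 in wild-type replicates 1, 2 and 3, the first of these being under the gauge. Each of these 3 genes was lowest in Ret-deficient replicate 1, the sample with the lowest epithelial markers, and Gata3 and Emx2 are themselves among those 10 markers. Ctnnb1, which encodes beta-catenin, had 0.06 and Sox9, a tip factor, 0.42.

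Among 8 measured activators of Gdnf in the mesenchyme 5 were lower and 3 higher, with a median of -0.10. Six4, a homeobox gene that acts upstream of Gdnf together with a related factor, read 4598.5, 4266.8 and 4375.5 in Ret-deficient replicates 1, 2 and 3, against 6705.8, 6818 and 6327.5 in wild-type replicates 1, 2 and 3. Its groups did not overlap and each was tight, with a difference of -0.58 (SE 0.20; limma adjusted p = 0.97 over all probe sets). The Six4 probe set has the suffix _x_at and can also match other transcripts. Osr1, a factor of the early kidney mesenchyme, had -0.46, and the homeobox genes Hoxa11 and Hoxd11 had 0.37 and 0.15. Of 7 genes that restrain Gdnf, its field or its signal 5 were lower and 2 higher, with a median of -0.28. Foxc1, which limits the extent of the Gdnf field, was higher without overlap, at 19996.5 to 26070.7 in Ret-deficient and 14548.5 to 17636.6 in wild-type kidneys, a difference of 0.49 (SE 0.23; limma adjusted p = 0.97 over all probe sets). Its relative Foxc2 had 0.04, the RET feedback inhibitor gene Spry1 -0.36 and Bmp4 -0.28.

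Downstream of the receptor, 18 adaptor and signalling genes were measured, 9 lower and 9 higher, with a median of 0.00. Cbl, a ubiquitin ligase that acts on activated receptor tyrosine kinases, was lower without overlap, at 1321.6 to 2438.3 in Ret-deficient and 2468.3 to 2820.4 in wild-type kidneys (difference -0.55, SE 0.29). Grb7, an adaptor that can bind RET, had a difference of -1.39 (SE 0.88), with 60 in Ret-deficient replicate 1, under the gauge. Src and Gab2, a kinase and a docking protein of the pathway, had 0.63 and 0.33. Of 11 measured targets of GDNF and RET 8 were lower and 3 higher, with a median of -0.29. Myb (-0.52) and Tmem59l (-2.22) were lower without overlap, and Tmem59l read 20, under the gauge, in Ret-deficient replicate 1. The Myb probe set has the suffix _x_at and can also match other transcripts. Wnt11, a tip ligand, read 579.9 to 756.8 in Ret-deficient kidneys, against 80.7, under the gauge, in wild-type replicate 1 and 672.8 and 658.2 in the other wild-type samples, which lie within the Ret-deficient range. Sox9 is also on this list. Of the 4 measured co-receptors and relatives of the family, Pspn was above the gauge in only 1 sample. The other 3 had differences of 0.19 to 0.26 with overlapping groups. Among them Ncam1, an alternative GDNF receptor, had 0.20 and Gas1, a relative of the GFRA proteins, 0.19.

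**Figure D5:**
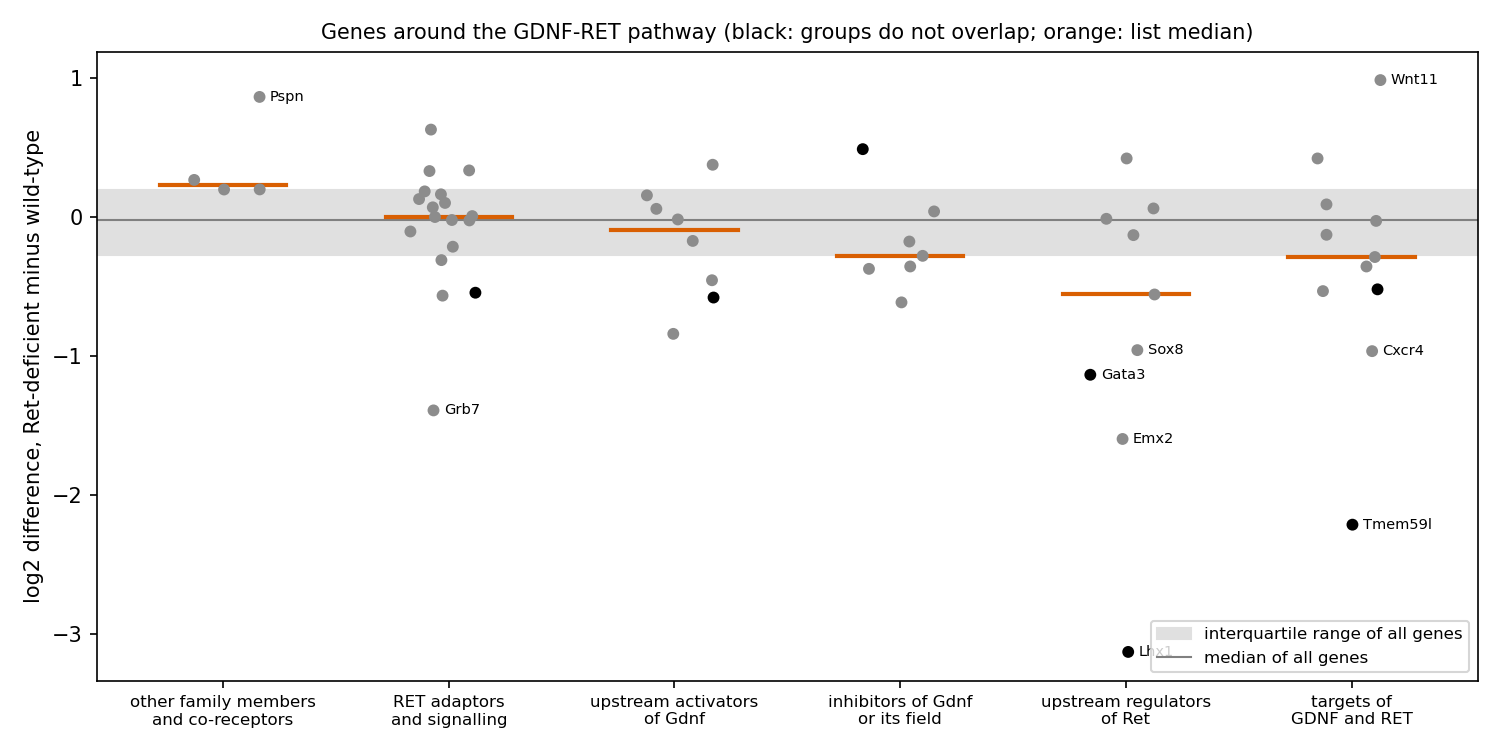
Log2 difference, Ret-deficient minus wild-type, of the 55 measured genes in 6 lists around the pathway, with Sox9 and Spry1 in a pair of lists each. Black points are genes whose groups do not overlap, orange bars are list medians, and the grey band marks the interquartile range of all genes. The median of the Ret regulators is -0.56 and that of the RET adaptors is 0.00.

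Genes whose pattern over the 6 arrays was nearest to that of Ret, Gdnf and Gfra1 were found by the root mean square distance of log2 values, each set against its own wild-type mean, among 11591 other genes with brighter probe sets. Nearest to Ret were Vsnl1, Calcr and Sim1, at distances of 1.76, 1.84 and 2.01. These are large because no gene matched the size of the Ret difference. Calcr, the calcitonin receptor gene, read 62.6, 46.1 and 120.1 in Ret-deficient replicates 1, 2 and 3, under the gauge of each array, against 531.8, 865.4 and 832.8 in wild-type replicates 1, 2 and 3. Sim1 encodes a transcription factor of the nephric duct lineage and read 62.8, 525.9 and 726.2 in Ret-deficient replicates 1, 2 and 3, against 1536.4, 2403.9 and 2287.6 in wild-type replicates 1, 2 and 3. Nearest to Gdnf were Lratd2, Hoxb1 and Gm16136, at distances of 0.17 to 0.18. Lratd2 read 3665.8 to 4973.8 in Ret-deficient and 6896.8 to 8991.6 in wild-type kidneys. Nearest to Gfra1 were Stimate, Rpusd2 and Zc2hc1c, at 0.06 to 0.11.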

How the data were processed

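The deposited values are signal intensities of the Affymetrix Mouse Genome 430 2.0 array made with MAS5, per the submitters' processing notes. The authors' values are linear and above 0, and their mean after trimming 2% at each end was 2500 on every array, as tested on the table. The sources used here give no version, scaling target or detection calls. Per the study design RNA was amplified before hybridization. The number of arrays limits the precision.

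Values were used as log2(signal + 16), which understates differences of dim probe sets. All 45037 probe sets other than 64 controls were compared with limma 3.58.1 in R 4.3.3 (files read by data.table, version 1.17.8) and adjusted by Benjamini-Hochberg at 0.05, with no brightness filter, so that every probe set had a value. The test was tested on simulated data. Probe sets were named from the platform annotation, updated by gene ID with RefSeq names (99.4% of those with 1 symbol). A gene with several probe sets was represented by the brightest. Promoter sequences are from RefSeq (GRCm38.p6).

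The genes examined, lists, markers and alternatives were chosen with earlier results of these data known. Pathway genes named were the 2 of smallest p in each direction of a list, above the gauge in every sample of a group; others are said to be picked later. Alternatives were the pseudocount, 2 brightness filters, 2 normalizations, an intensity trend, array weights, a replicate block, each array left out, a looser threshold, a minimum of 2-fold and means over a gene's probe sets. In the main fit the samples were not paired by replicate number, and whether same-numbered samples belong together is not known.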

Additional observations from a re-analysis of the deposited data

How the results depend on the processing

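Over 215 values of the 15 probe sets under the alternatives, 202 kept their direction and their side of the threshold, and 9 probe sets reversed in none. Part of these could not change direction, because the brightness filters, the intensity trend and the replicate block leave the difference of a probe set as it is. The count of 202 is therefore no measure of how stable the differences are. With an intensity trend in the variance 1 probe set of the array passed, Ret 1436359_at (difference -5.43), and so 1 of the members and pathway genes. The count of probe sets past the threshold was 0 in every other setting, an adjusted p of 0.1 and each array left out included, with 2084 to 3198 at an unadjusted p under 0.05 when an array was left out and 2265 with all. With array quality weights Gfra2 1459847_x_at was 0.34. With 1 array left out the difference ranged from -0.55 to 0.60 for Artn, from -0.56 to 0.18 for Gfra2 1433716_x_at, from -0.47 to 0.39 for Gfra2 1459847_x_at, from -0.081 to 0.41 for Gfra2 1423007_a_at, from -0.54 to 0.34 for Gfra3 and from -0.87 to 0.017 for Gfra4. The cause of these reversals was not tested. Gfra2 1423007_a_at was under the gauge on every array and Gfra4 on 3 of 6, so their values have no direction to read. The probe sets lower without overlap were 5 to 7 of the 15 when an array was left out (chosen after seeing the data), where 10.2% to 15.9% of all probe sets were so. Both Ret probe sets were among them each time. Same-numbered arrays did not deviate together from their group means (correlations of 0.04, -0.04 and -0.11 over the brighter probe sets). With the replicate block 0 probe sets passed, 2249 had an unadjusted p under 0.05, and Gdnf had -0.97 (SE 0.30). The brightness filters left out 5 and 11 of the 15 probe sets. Signals near the gauge limit Gfra4, the dimmer Ret probe set and part of Gfra1 and Gfra2.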

Other observations

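The 5 measured markers of neural crest glia had a median log2 difference of -0.09. Of these, 2 were lower in Ret-deficient kidneys without overlap, where 6.16% of 18193 genes were. Sox10, the factor that defines these cells, read 2268.5, 1100.4 and 1644.2 in Ret-deficient replicates 1, 2 and 3, against 6970.9, 3770.1 and 3361.8 in wild-type replicates 1, 2 and 3. Its log2 difference was -1.47 (SE 0.41; limma adjusted p = 0.93 over all probe sets). Erbb3, the neuregulin receptor gene, read 436.6, 2041.8 and 1493 in Ret-deficient replicates 1, 2 and 3, against 2931.2 to 3479.3 in wild-type kidneys. Within the Ret-deficient group Erbb3 was lowest in replicate 1, the sample with the lowest epithelial markers, whereas Sox10 was highest there. The other 3 markers of the list had differences of -0.09 to 0.13.

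Markers of other cell types gave these median log2 differences: -1.23 over 10 genes of the ureteric epithelium, 0.01 over 7 of nephron progenitors, 0.23 over 5 of renal stroma, -0.74 over 8 of sympathetic and enteric neurons, -0.09 over 5 of neural crest glia and -0.17 over 4 of the adrenal cortex. The medians were 0.53 over 6 genes of macrophages, 0.03 over 3 of the erythroid lineage and 0.02 over 4 of endothelium. No marker passed an adjusted p of 0.05 in limma over all probe sets, and 7 of the 52 measured had an unadjusted p under 0.05, all lower, where 2.79% of 18193 genes were lower at that level.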
